A study of Canis lupus familiaris with 15 samples.

Results

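CYBB, TLR1, CD86, FCER1G, FCGR1A, MMP12 and CD36 are 7 canine genes known from macrophages and dendritic cells. They were taken by name, with earlier results of these data known. They were found through the RefSeq identifiers that the array design gives to its probes. All 7 genes matched, on 8 of 43603 probes, so they make up 7 of the 1357 genes that carry a symbol here and 7 of 36604 targets in all. FCER1G had 2 probes and each of the other genes had 1. No position on the genome is given, because the annotation used for names belongs to another assembly than the array grid.

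The study followed drug response in canine lymphoma, with 1 Agilent array in 1 colour for each of 15 samples of 5 dogs. The drug-sensitive tumour was 1 biopsy, from the dog Thai. Its sample title calls the tumour naive, a word that no other title uses. The needle aspirate after metformin came from MalcolmX, and an aspirate that the labels call a second original resistant tumour came from Rosco. Drug-resistant tumours were 4 biopsies, from MalcolmX, Jake, Rosco and Dog Y, although the labels of Rosco and Dog Y also speak of a time before treatment. Rosco was then sampled over time. A first aspirate followed failed chemotherapy, named chop in the sample title, when metformin had not yet been given. A second was taken in remission under metformin. At relapse, again with metformin given, there were 3 aspirates, and 1 tumour sample was taken after death. Control tissue was 2 skin biopsies, from MalcolmX and Rosco, which are dogs with lymphoma. Ages and breeds are not among the labels. The samples in time come from 1 dog, so the p-values of those comparisons measure the spread between these samples only, which may be technical. Each value is the log2 signal of a probe minus the 75th percentile of its own array, called log2 relative signal, so that 0 is the level of a bright probe and a step of 1 is a factor of 2.

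The 75th percentile ran from 367 to 1241 intensity units over the arrays, and between 66.7% and 75.9% of probes were well above background. The arrays lay on 4 slides read on 2 scan days, and the sensitive biopsy shared neither with the resistant biopsies, so dog, slide and scan day cannot be told apart from drug response there. The tissue labels were checked against markers. MS4A1, which encodes the B cell protein CD20, lay between 1.78 and 3.53 log2 relative signal in the sensitive, relapse and post-mortem samples, in the MalcolmX aspirate and in the MalcolmX, Jake and Dog Y biopsies. It was not above background in the Rosco biopsy (−7.16), the second resistant aspirate (−6.73) or Rosco skin (−8.04), and it read 0.40 after failed chemotherapy, 0.38 in remission and 0.84 in MalcolmX skin, so 1 of the 2 control skins carried B cell signal. In the Rosco biopsy and the second resistant aspirate CA6, a carbonic anhydrase of salivary glands, read 8.59 and 8.99, against at most 1.45 elsewhere. These 2 samples stand apart from the other tumours, so results that rest on the Rosco biopsy are given with and without it.

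Macrophages and dendritic cells are the sampling cells of the lymph node. They bind antibody-coated particles through Fc receptors, sense microbial molecules through toll-like receptors, kill with an oxidase, digest matrix with secreted proteases, and show antigen to T cells together with costimulators such as CD86. Most of these genes are not private to them: B cells also carry CYBB, TLR1 and CD86, and fat cells, muscle and capillary endothelium carry CD36.

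The 7 genes did not vary as one set. Over the 15 arrays, Pearson's r between members ran from −0.86 for CYBB and CD36 to 0.89 for CYBB and TLR1. CD36 and TLR1 had r = −0.83, CD86 and FCER1G r = 0.71, and FCGR1A and MMP12 r = 0.65. These are descriptions over arrays that share dogs and slides. The 3 arrays without MS4A1 above background were among the 4 lowest for both CYBB and TLR1, but in the MalcolmX aspirate, where MS4A1 read 3.21, CYBB read 1.24. CD36 stood highest in skin and in the 2 samples with high CA6. Of 36 other monocyte and macrophage genes looked for, only 7 carried a symbol on this array, so the genes below are described by name and not as a measure of macrophages. In RNA of whole tissue, fewer cells of a type and less RNA per cell cannot be told apart.

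**Figure D1:**
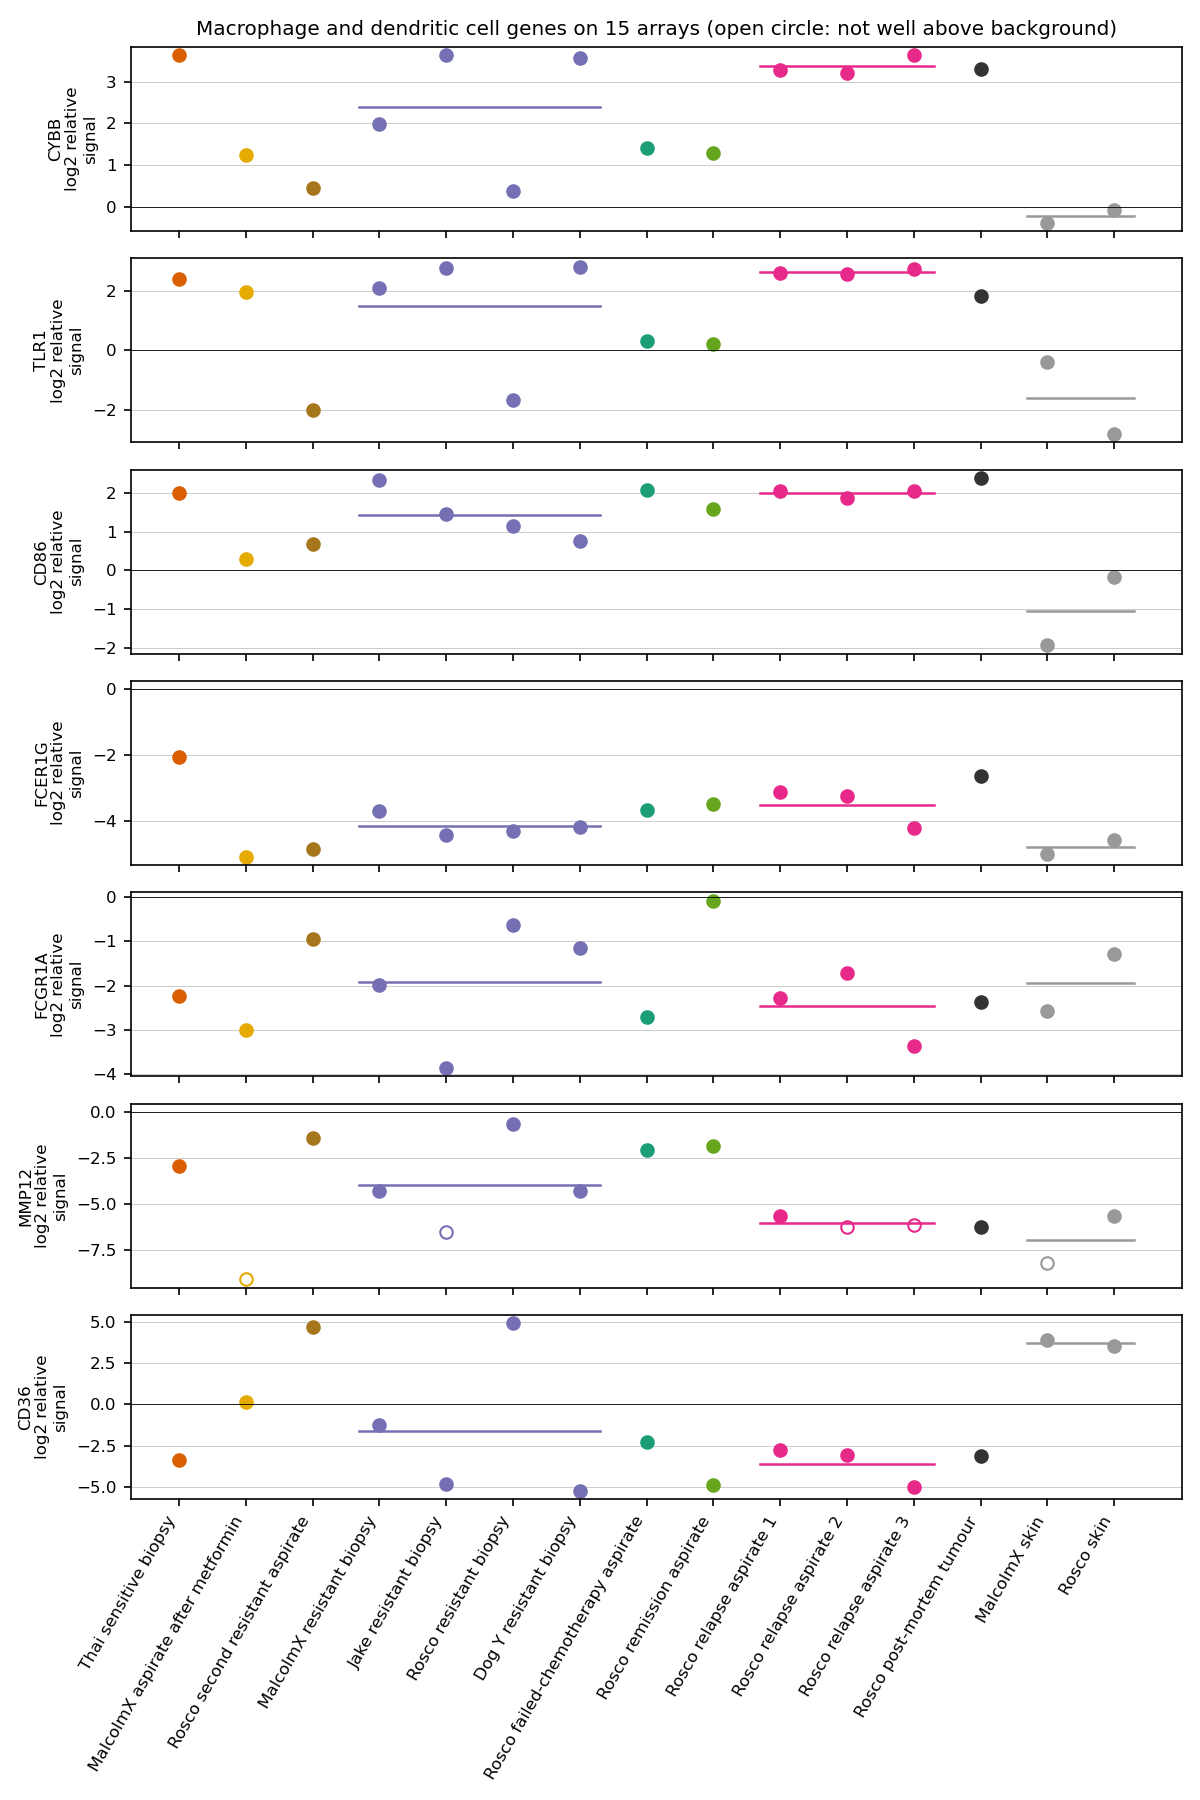
Log2 relative signal of each of the 7 genes (vertical axes) on each of the 15 arrays (horizontal axis), 1 point per array, with lines for the means of groups of several arrays and open circles for signals not well above background. CYBB and TLR1 are lowest in skin, the Rosco biopsy and the second resistant aspirate, where CD36 is highest.

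FCGR1A (NCBI Gene 403462) encodes CD64, the receptor that binds single IgG molecules tightly. It read −2.24 in the sensitive biopsy, −3.01 in the MalcolmX aspirate after metformin and −0.95 in the second resistant aspirate. The resistant biopsies read −1.99 in MalcolmX, −3.86 in Jake, −0.64 in Rosco and −1.15 in Dog Y, and skin read −2.57 in MalcolmX and −1.30 in Rosco. In Rosco it read −2.71 after failed chemotherapy, −0.09 in remission, −2.28, −1.72 and −3.37 in relapse aspirates 1, 2 and 3, and −2.36 after death. The remission aspirate was the highest array and the Jake biopsy the lowest. Ordered by mean, no gap between neighbouring groups exceeded the pooled SD within groups of 1.17.

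In no tested comparison did FCGR1A pass the threshold, an adjusted p of 0.05 by limma over all targets. Resistant biopsies averaged −1.91 ± 1.41 and skin −1.94 ± 0.90 (SD, n = 4 and 2), a difference of 0.03 (SE 0.95, limma adjusted p = 0.989). The relapse aspirates averaged −2.46 ± 0.84 and the 2 earlier aspirates −1.40 ± 1.85 (SD, n = 3 and 2), a difference of −1.06 (SE 0.83, limma adjusted p = 0.376). That difference rested on the remission aspirate: without it the value was 0.25. The sensitive biopsy differed from the resistant ones by −0.33 (SE 1.26) and the post-mortem sample from the relapse aspirates by 0.10 (SE 0.67).

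The genes whose pattern was most like that of FCGR1A over the 15 arrays, out of 1061 genes compared, were SERPINA1 (r = 0.796), which encodes a protease inhibitor of plasma, CXCL8 (r = 0.740), a chemokine that draws neutrophils, and CRSP-2 (r = 0.737), a peptide hormone of the calcitonin family. Without the 2 arrays farthest from the median of FCGR1A, the remission aspirate and the Jake biopsy, r was 0.826, 0.611 and 0.738. CXCL8 read −0.01 in the remission aspirate and −4.20 in the failed-chemotherapy aspirate. S100A8, a calcium-binding protein abundant in neutrophils, read 4.32 in remission and 2.24 before. Of 14 neutrophil genes looked for, 6 carried a symbol, and their summed signal was 24.2 times the 75th percentile in remission and 6.84 times it after failed chemotherapy. All 6 were above background on both arrays. Their part in the FCGR1A value was not tested.

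FCER1G (NCBI Gene 403798) encodes the Fc receptor gamma chain, the signalling partner of FCGR1A and of the IgE receptor. It read −2.07 in the sensitive biopsy, −5.09 in the MalcolmX aspirate and −4.84 in the second resistant aspirate. The resistant biopsies of MalcolmX, Jake, Rosco and Dog Y read −3.70, −4.43, −4.31 and −4.18, and the skins of MalcolmX and Rosco −5.00 and −4.57. Rosco over time read −3.66 after failed chemotherapy, −3.49 in remission, −3.11, −3.25 and −4.23 in relapse aspirates 1, 2 and 3, and −2.63 after death. The sensitive biopsy was the highest array and the MalcolmX aspirate the lowest. The pooled SD of 0.44 was small, and 4 of 8 gaps between neighbouring groups exceeded it, among them the gap of 0.56 between the sensitive biopsy and the post-mortem sample and the gap of 0.86 below that. The second probe of the gene followed the first, with r = 0.981 over the 15 arrays.

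FCER1G lay 2.08 above the resistant mean in the sensitive biopsy, which read −2.07 against −4.16 ± 0.32 in the resistant biopsies (SD, n = 4). The sensitive array lay above all 4 resistant arrays, as it did for 20.4% of all targets. By limma with Benjamini-Hochberg adjustment over 26372 targets the adjusted p was 1 (SE 0.50, unadjusted p = 0.00744). In this comparison 0 targets were called by limma, 0% of those tested, and 786 (2.98%) had an unadjusted p under 0.05. Leaving out the Rosco biopsy left the FCER1G difference at 2.03, and normexp background correction, a model-based one, gave 1.07. Between resistant biopsies and skin the difference was 0.63 (SE 0.37, limma adjusted p = 0.409), and 0.41 without the MalcolmX skin. All 4 biopsies lay above both skins, as for 18.1% of all targets. The post-mortem sample lay 0.90 above the relapse mean (SE 0.51, limma adjusted p = 0.453) and above all 3 relapse aspirates, as for 36.8% of all targets.

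ADGRE1 was the gene most like FCER1G (r = 0.877, and 0.848 without the Thai and post-mortem arrays). Its mouse counterpart encodes the macrophage antigen F4/80. TNFSF10, the death ligand TRAIL, followed with r = 0.871, and CEACAM23, of the carcinoembryonic antigen family, with r = 0.855. Of 12 other Fc receptors, adaptors and kinases looked for, FCER1A and TYROBP carried a symbol, and neither passed the threshold in any of the 4 comparisons. TYROBP, an adaptor of myeloid and natural killer cells that signals through the same kind of motif, lay 1.15 (SE 0.47) above the resistant mean in the sensitive biopsy and 0.93 (SE 0.46) above skin in the resistant biopsies, at limma adjusted p of 1 and 0.370.

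CYBB (NCBI Gene 491825) encodes the catalytic subunit of the phagocyte NADPH oxidase, which makes superoxide. It read 3.63 in the sensitive biopsy, 1.24 in the MalcolmX aspirate and 0.45 in the second resistant aspirate. The resistant biopsies read 1.99 in MalcolmX, 3.63 in Jake, 0.39 in Rosco and 3.57 in Dog Y, and the skins −0.38 in MalcolmX and −0.07 in Rosco. In Rosco it read 1.40 after failed chemotherapy, 1.28 in remission, 3.29, 3.21 and 3.63 in relapse aspirates 1, 2 and 3, and 3.31 after death. Both skins lay below all other arrays, and the share of all targets that do so was not counted. Ordered by mean, with the sensitive biopsy highest and skin lowest, no gap between neighbouring groups exceeded the pooled SD of 1.1.

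CYBB rose in the relapse aspirates of Rosco. They averaged 3.38 ± 0.22, and the failed-chemotherapy and remission aspirates together 1.34 ± 0.08 (SD, n = 3 and 2). The difference of 2.04 (SE 0.20) is 4.11-fold, at a limma adjusted p of 0.00125. In this comparison 33.7% of 25381 targets were called. Of the 7 members CYBB, TLR1 and MMP12 were called, and MMP12 had entered the test only through the earlier aspirates. With slide as a block the difference was 2.04, within slide 3 it was 2.14 and within slide 4, which holds 1 array of each group and allows no test, 1.89.

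Against skin, the resistant biopsies averaged 2.40 ± 1.54 and the skins −0.23 ± 0.22 (SD, n = 4 and 2). The difference of 2.62 (SE 0.97) did not pass by limma (adjusted p = 0.316), although the groups did not overlap, as for 18.1% of all targets in this direction. The Rosco biopsy decided the call. Without it the 3 remaining biopsies lay 3.29 above skin at a limma adjusted p of 0.0315. In that fit 12.8% of 24444 targets were called, while only 0.434% of 23952 were called with all biopsies. With slide as a block the difference was 2.57, and within slide 1 it was 2.91. Within slide 2 it was 2.06, without a test, from the MalcolmX biopsy and the Rosco skin. Paired within MalcolmX and Rosco, the dogs that gave both tissues, it was 1.42. The sensitive biopsy differed from the resistant ones by 1.23 (SE 1.36), and by 0.56 without the Rosco biopsy, and the post-mortem sample from the relapse aspirates by −0.06 (SE 0.28).

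CYBA, the membrane partner that holds CYBB stable, rose in the relapse aspirates by 1.75 (SE 0.17, limma adjusted p = 0.00126). DUOX1, an oxidase of epithelia, differed by −0.51 (SE 0.44). Among the genes most like CYBB over the 15 arrays were GNB1 (r = 0.938), a G protein subunit, and ASPM (r = 0.932), a spindle protein of dividing cells. Without the 2 skins r was 0.924 and 0.893.

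TLR1 (NCBI Gene 488834) encodes a receptor that pairs with TLR2 to sense bacterial lipopeptides. It read 2.38 in the sensitive biopsy, 1.95 in the MalcolmX aspirate and −2.01 in the second resistant aspirate. The resistant biopsies read 2.08 in MalcolmX, 2.78 in Jake, −1.68 in Rosco and 2.81 in Dog Y, and the skins −0.41 in MalcolmX and −2.82 in Rosco. In the other Rosco samples it was 0.30 after failed chemotherapy, 0.21 in remission, 2.59, 2.55 and 2.72 in relapse aspirates 1, 2 and 3, and 1.84 after death. The 4 lowest arrays were both skins, the Rosco biopsy and the second resistant aspirate. Ordered by mean, only the gap of 1.83 between the remission aspirate and skin exceeded the pooled SD of 1.67.

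TLR1 rose in relapse as CYBB did. The relapse aspirates averaged 2.62 ± 0.09 and the 2 earlier aspirates 0.26 ± 0.06 (SD, n = 3 and 2), a difference of 2.36 (SE 0.17), or 5.14-fold, at a limma adjusted p of 0.000502. A fit with slide as a block gave 2.36, and within slide 3 it was 2.42 and within slide 4, without a test, 2.29. The post-mortem sample lay 0.78 below the relapse mean (SE 0.24) and below all 3 relapse aspirates, as for 29.3% of all targets. The unadjusted p was 0.0235 by limma and the adjusted p 0.266. In that comparison limma called 0% of 27125 targets, and 15.2% had an unadjusted p under 0.05.

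Against skin, TLR1 averaged 1.50 ± 2.15 in the resistant biopsies and −1.61 ± 1.70 in skin (SD, n = 4 and 2). The groups overlapped through the Rosco biopsy, and the difference of 3.11 (SE 1.45) had a limma adjusted p of 0.362. Without the Rosco biopsy the difference was 4.17, at a limma adjusted p of 0.0316, in a fit that called 12.8% of all targets. A block for slide gave 2.99, and within slide 1 it was 1.71. Within slide 2 it was 4.90, without a test, from the MalcolmX biopsy and the Rosco skin. Paired within the 2 dogs that gave both tissues it was 1.81, and without the Rosco skin 1.91. The sensitive biopsy lay 0.88 (SE 1.85) above the resistant mean, and −0.18 from it without the Rosco biopsy.

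Receptors of nucleic acids had the pattern nearest to that of TLR1. TLR7, which senses single-stranded RNA, had r = 0.982, and TLR9, which senses bacterial DNA, r = 0.977, while IL2RA, the alpha chain of the interleukin-2 receptor, had r = 0.975. Without Rosco skin and the second resistant aspirate r was 0.966, 0.952 and 0.967. Of 14 other toll-like receptors and adaptors looked for, 6 carried a symbol. In the relapse aspirates 3 of 5 tested rose, beside 17.4% of all targets. TLR7 rose by 1.81 (SE 0.18), TLR9 by 1.59 (SE 0.23) and TLR10, a receptor of B cells, by 4.61 (SE 0.16). Their limma adjusted p were 0.00127, 0.00387 and 0.000128. TLR2, the partner of TLR1, differed by −0.13 (SE 0.26) and TLR4, the receptor of endotoxin, by 0.62 (SE 0.26), and neither passed the threshold. The median of the 5 was 1.59, beside −0.08 over all targets.

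**Figure D2:**
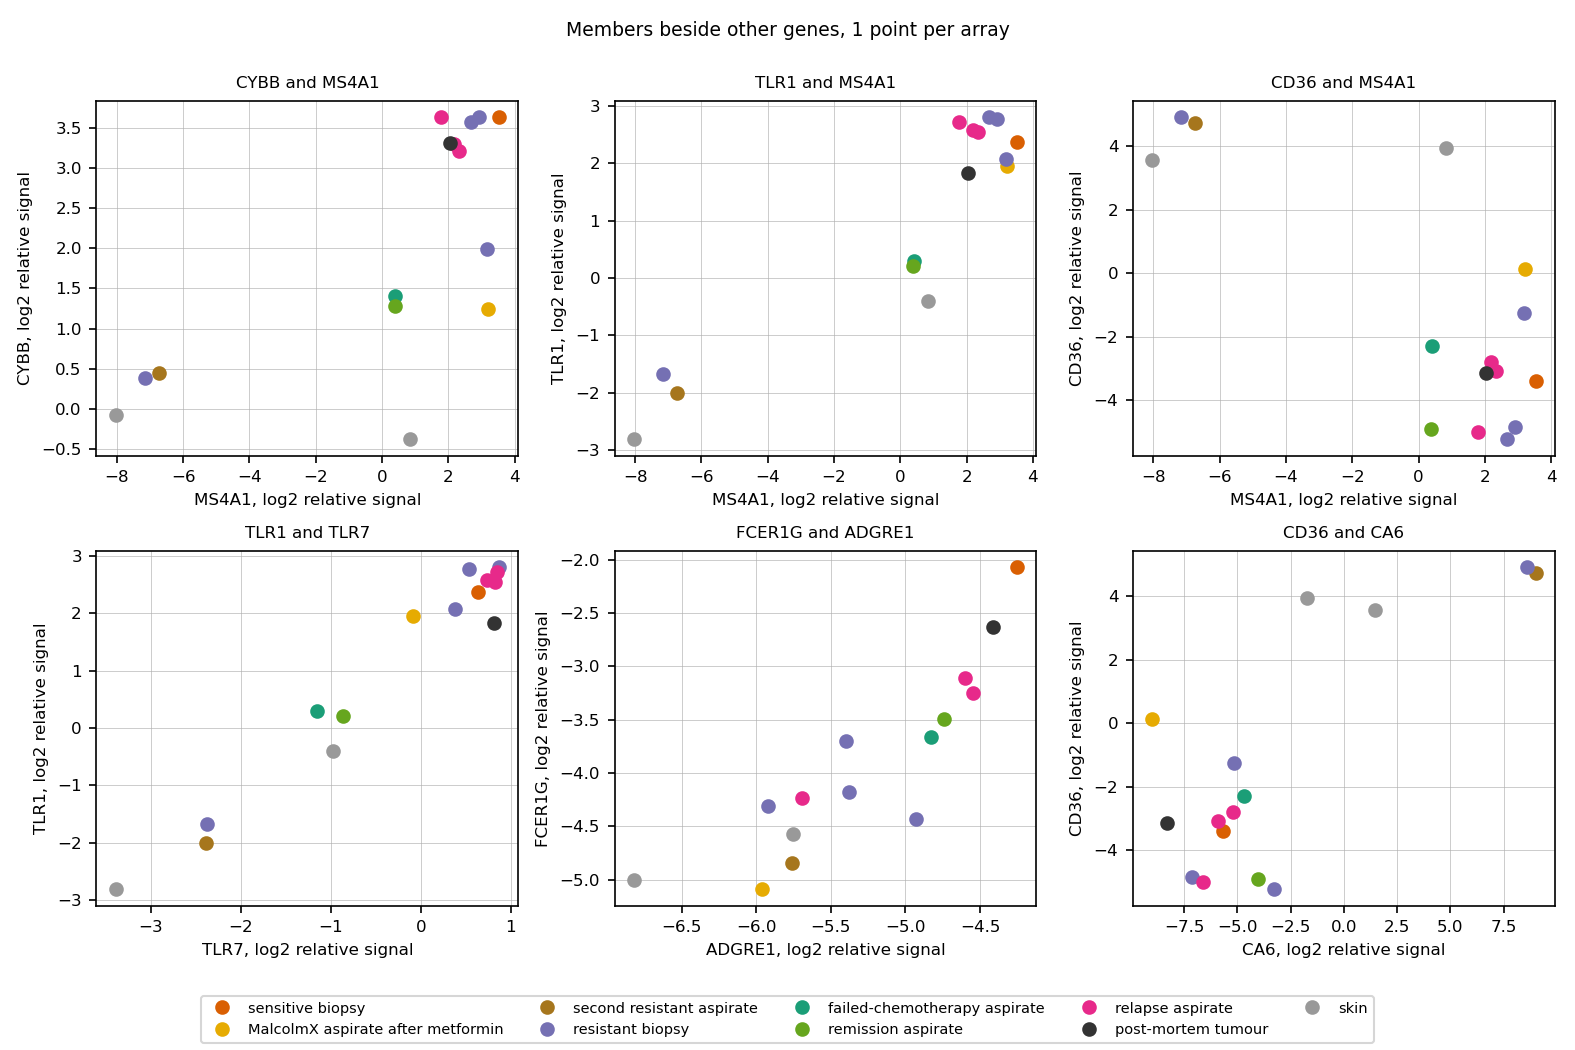
Log2 relative signal of members (vertical axes) against another gene (horizontal axes), 1 point per array and 15 arrays per panel, coloured by group. TLR1 lies from −2.82 to 2.81 and follows TLR7 closely (r = 0.982), FCER1G follows ADGRE1 (r = 0.877), and CD36 is highest, at 4.91 and 4.72, on the 2 arrays with the highest CA6.

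B and T cell genes moved with the relapse result as well. Of 11 B cell genes looked for, 2 carried a symbol, and MS4A1 rose by 1.70 (SE 0.22, limma adjusted p = 0.00278). BCL6, the repressor of germinal centre B cells, was not above background on any relapse array, which puts it at least 2.42-fold lower there. Such bounds set the dim arrays at the lowest signal above background, or at their own signal where that is higher. BCL6 entered the test only through the earlier aspirates, so its limma adjusted p of 0.00239 rests on relapse signals below background. Of 15 T and natural killer cell genes looked for, 6 carried a symbol. All 6 had lower values in the relapse aspirates, and 4 fell past the threshold, beside 16.3% of all targets. CD8A, of cytotoxic T cells, fell by 6.42 (SE 0.33, limma adjusted p = 0.000239). The summed signal of the 6 genes was 1.70 to 3.28 times the 75th percentile in the relapse aspirates, against 15.4 times it in the remission aspirate and 23.0 times it after failed chemotherapy. All 6 were above background on these 5 arrays. The part of these genes in the CYBB, TLR1 and MMP12 results was not tested.

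CD86 (NCBI Gene 403764) encodes B7-2, the costimulator that T cells meet through CD28 and CTLA4. It read 1.99 in the sensitive biopsy, 0.28 in the MalcolmX aspirate and 0.68 in the second resistant aspirate. The resistant biopsies read 2.32 in MalcolmX, 1.46 in Jake, 1.14 in Rosco and 0.75 in Dog Y, and the skins −1.94 in MalcolmX and −0.18 in Rosco. The other samples of Rosco gave 2.07 after failed chemotherapy, 1.58 in remission, 2.04, 1.87 and 2.05 in relapse aspirates 1, 2 and 3, and 2.38 after death. Both skins lay below all 13 tumour arrays, and every tumour array lay above 0. The share of all targets that separate skin from every tumour array was not counted. Only the gaps of 1.34 between the MalcolmX aspirate and skin and of 0.73 between the resistant biopsies and the second resistant aspirate exceeded the pooled SD of 0.70.

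CD86 averaged 1.41 ± 0.67 in resistant biopsies and −1.06 ± 1.24 in skin (SD, n = 4 and 2). The difference of 2.48 (SE 0.66) is 5.57-fold, with a limma adjusted p of 0.240 (unadjusted p = 0.00859). The groups did not overlap, as for 18.1% of all targets in this direction. With slide as a block the difference was 2.83, and within slide 1 it was 3.06. Within slide 2 it was 2.50, without a test, from the MalcolmX biopsy and the Rosco skin. Without the Rosco biopsy it was 2.57 at a limma adjusted p of 0.0659, without the MalcolmX skin 1.60 at 0.504, and without the Rosco skin 3.36 at 0.160. Unlike CYBB and TLR1, CD86 did not pass in relapse: the relapse aspirates averaged 1.99 ± 0.10 and the 2 earlier aspirates 1.82 ± 0.35 (SD, n = 3 and 2), a difference of 0.16 (SE 0.21, limma adjusted p = 0.604). Whether the genes differ in their response was not tested. In the sensitive biopsy CD86 lay 0.58 (SE 0.70) above the mean of the resistant ones. The post-mortem sample lay 0.39 (SE 0.24) above the relapse mean and above all 3 relapse aspirates, as for 36.8% of all targets.

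Other costimulation genes did change in the relapse aspirates. Of 8 looked for, 7 carried a symbol and all 7 passed the threshold, 2 higher and 5 lower, beside 33.7% of all targets. CD80, the other ligand of CD28, fell by 3.50 (SE 0.21) and CD28 itself fell by 5.35 (SE 0.30), at limma adjusted p of 0.000322 and 0.000304. The inhibitory receptor CTLA4 fell by 3.66 (SE 0.45), ICOS fell by 4.69 (SE 0.41) and CD40LG fell by 4.95 (SE 0.61), at limma adjusted p of 0.00239, 0.000877 and 0.0024. ICOS was above background on 2 of the 3 relapse arrays. These 3 genes are expressed mainly by T cells. CD40, the receptor of CD40LG on B cells and dendritic cells, rose by 2.59 (SE 0.29) and CD274, the ligand of PD-1, by 2.57 (SE 0.41), at limma adjusted p of 0.00186 and 0.00585. The genes most like CD86 were CCL19, a chemokine of lymph node stroma (r = 0.895), LMAN2, a lectin of the secretory pathway (r = 0.890), and CTSA, a lysosomal protease (r = 0.880). Without the 2 skins r was 0.794, 0.745 and 0.800.

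**Figure D3:**
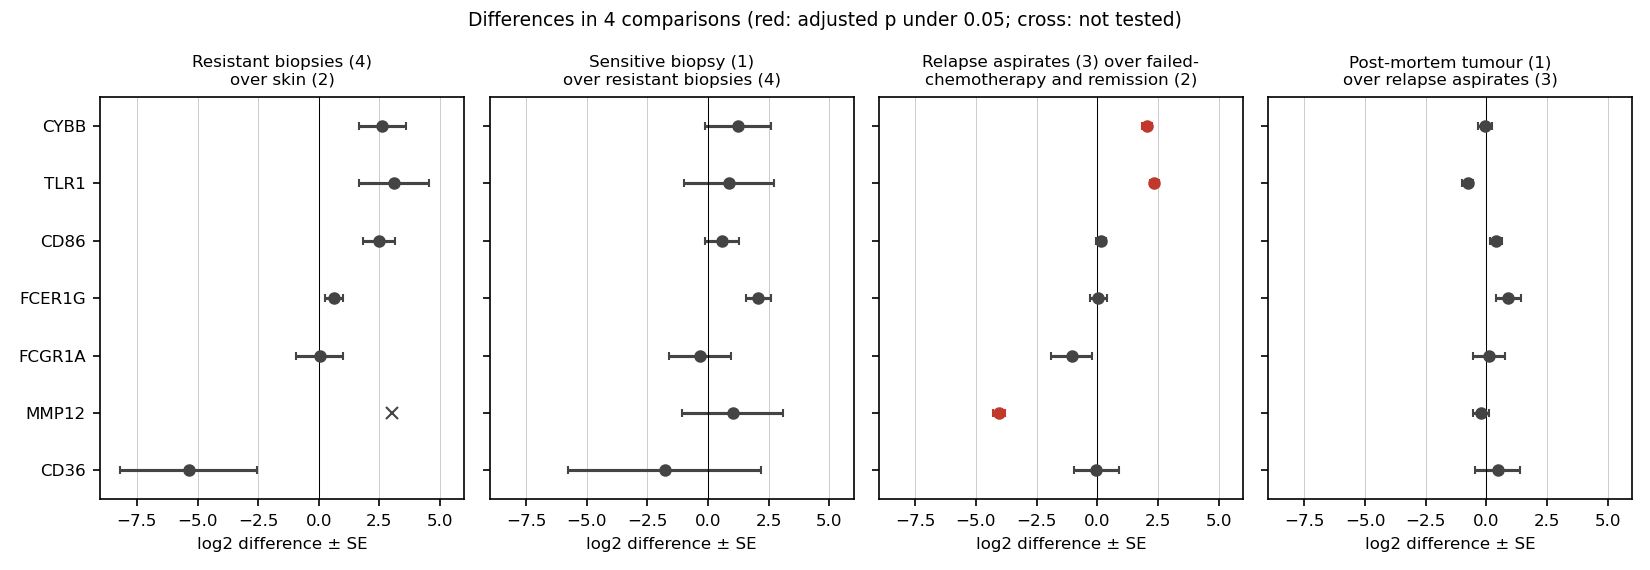
Difference in log2 relative signal (horizontal axes, with SE bars from limma) for the 7 genes in the 4 tested comparisons, with the number of arrays per group in the panel titles. Red points have a limma adjusted p under 0.05 and the cross was not tested. Only the relapse panel holds red points, for CYBB (2.04), TLR1 (2.36) and MMP12 (−4.06).

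MMP12 (NCBI Gene 611789) encodes macrophage elastase, a secreted protease that cuts elastin. It was above background on 10 of 15 arrays and ran from −6.27 to −0.67 on those. It read −2.94 in the sensitive biopsy and −1.40 in the second resistant aspirate, and it was not above background in the MalcolmX aspirate (−9.13). The resistant biopsies read −4.29 in MalcolmX, −0.67 in Rosco and −4.30 in Dog Y, with Jake not above background (−6.56), and the skins −8.23 in MalcolmX, not above background, and −5.69 in Rosco. In Rosco it read −2.08 after failed chemotherapy, −1.85 in remission and −5.67 in relapse aspirate 1. Relapse aspirates 2 and 3, at −6.28 and −6.14, were not above background, while the post-mortem sample, at −6.27, was marked as above it. The 4 highest arrays were all from Rosco: the biopsy, the second resistant aspirate, the remission aspirate and the failed-chemotherapy aspirate.

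MMP12 was lower in relapse than before it, but it entered the test only through the earlier aspirates, where it was high, and 2 of 3 relapse arrays were not above background. The relapse aspirates averaged −6.03 ± 0.32 and the 2 earlier aspirates −1.97 ± 0.16 (SD, n = 3 and 2). The difference of −4.06 (SE 0.24, limma adjusted p = 0.000322) therefore has no firm size, and with normexp correction it was −1.60 at a limma adjusted p of 9.11e-05. Relapse aspirate 1, the relapse array with MMP12 above background, read −5.67, against −2.08 and −1.85 in the earlier aspirates. The fit with a block for slide gave −4.03, and within slide 3 it was −4.36 and within slide 4, without a test, −3.59.

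Between resistant biopsies and skin MMP12 was not tested, because it was dim on 1 array of each group. The biopsies averaged −3.96 ± 2.43 and the skins −6.96 ± 1.79 (SD, n = 4 and 2), and the groups overlapped. The sensitive biopsy lay 1.02 (SE 2.09) above the resistant mean, and 2.11 above it without the Rosco biopsy, and the post-mortem sample differed from the relapse mean by −0.24 (SE 0.33).

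Of 18 other metalloproteases and inhibitors looked for, 7 carried a symbol. In the relapse aspirates 3 were tested, and MMP9, a gelatinase of neutrophils and macrophages, fell by 2.44 (SE 0.20, limma adjusted p = 0.000712). The inhibitors TIMP1 and TIMP2 differed by −0.20 (SE 0.27) and −0.23 (SE 0.25). After death TIMP1 lay 2.47 (SE 0.34) above the relapse mean, at a limma adjusted p of 0.0696. The genes most like MMP12 were TMBIM6 (r = 0.872), an inhibitor of cell death in the endoplasmic reticulum, CEACAM1 (r = 0.871), an adhesion receptor, and TRAM1 (r = 0.815), a protein of the secretion channel, with the 5 arrays below background included. Without the Rosco biopsy and the second resistant aspirate r was 0.809, 0.798 and 0.706.

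CD36 (NCBI Gene 475931) encodes a scavenger receptor that takes up oxidised lipoprotein and long-chain fatty acids. It read −3.40 in the sensitive biopsy, 0.12 in the MalcolmX aspirate and 4.72 in the second resistant aspirate. The resistant biopsies read −1.26 in MalcolmX, −4.84 in Jake, 4.91 in Rosco and −5.24 in Dog Y, and the skins 3.93 in MalcolmX and 3.56 in Rosco. In Rosco it read −2.29 after failed chemotherapy, −4.90 in remission, −2.79, −3.08 and −5.00 in relapse aspirates 1, 2 and 3, and −3.16 after death. The 4 highest arrays were both skins, the Rosco biopsy and the second resistant aspirate. The resistant biopsies alone spanned 10.15, the whole range of the gene over the 15 arrays. Only the gap of 3.63 between skin and the MalcolmX aspirate exceeded the pooled SD of 3.39.

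CD36 averaged −1.61 ± 4.70 in the resistant biopsies and 3.75 ± 0.26 in skin (SD, n = 4 and 2), a difference of −5.36 (SE 2.83) at a limma adjusted p of 0.385. Without the Rosco biopsy CD36 fell, with a difference of −7.53 at a limma adjusted p of 0.0272, in a fit that called 12.8% of all targets. With slide as a block the difference was −5.32, and within slide 1 it was −5.66. Within slide 2 it was −4.82, without a test, from the MalcolmX biopsy and the Rosco skin. Paired within the 2 dogs that gave both tissues it was −1.92, since the biopsy lay below skin in MalcolmX and above it in Rosco. The sensitive biopsy differed from the resistant mean by −1.79 (SE 3.97) and by 0.38 without the Rosco biopsy. The relapse aspirates differed from the 2 earlier ones by −0.03 (SE 0.94) and the post-mortem sample from the relapse aspirates by 0.47 (SE 0.93). Neither passed by limma (adjusted p of 0.982 and 0.837).

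The genes most like CD36 were enzymes of metabolism: SULT1A1, a sulfotransferase (r = 0.953), PON2, a paraoxonase (r = 0.949), and MAOB, a monoamine oxidase (r = 0.949). Without the Rosco biopsy and the second resistant aspirate r was 0.918, 0.909 and 0.911. ADIPOQ and PPARG stood high in skin, as CD36 did. ADIPOQ, the fat cell hormone adiponectin, read −3.21 in the Rosco biopsy and −3.03 in the second resistant aspirate, against 4.58 and 5.27 in the skins of MalcolmX and Rosco. It fell by 7.73 (SE 0.70, limma adjusted p = 0.0168) in the resistant biopsies. PPARG, a nuclear receptor of fat cells and macrophages, differed by −4.64 (SE 0.61, limma adjusted p = 0.0518). FFAR4, a fatty acid receptor, was not above background in any resistant biopsy and so was at least 46.1-fold lower there. It entered the test only through skin, so its limma adjusted p of 0.00355 rests on biopsy signals below background. LEP, the hormone leptin, differed by −0.06 (SE 0.51). Of 12 fat cell genes looked for, 4 carried a symbol. Their summed signal was 0.487 to 1.01 times the 75th percentile in the resistant biopsies and 29.8 to 42.3 times it in skin. In the MalcolmX aspirate, where CD36 read 0.12, the sum was 2.59, and in the second resistant aspirate 0.844. Of 10 gland genes looked for, 4 carried a symbol. Their summed signal was 579 times the 75th percentile in the second resistant aspirate, 466 times it in the Rosco biopsy and 1.50 to 1.96 times it in the other 3 biopsies, against 39.7 and 170 times it in skin. Of 12 muscle genes 5 carried a symbol, with sums of 0.105 to 2.19 in the resistant biopsies and 104 to 269 in skin. The part of fat, gland or muscle cells in the CD36 values was not tested.

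Read together by comparison, 0 of 6 tested members were called between resistant biopsies and skin, beside 0.434% of all targets, and 2 had an unadjusted p under 0.05 by limma, beside 14.8%. Of the 6 tested differences 5 were above 0, beside 60.9% of all tested targets, and their median was 1.55 beside 0.25. With MMP12, which was not tested here, 6 of 7 were above 0 and the median was 2.48. Keratinocyte genes moved with this comparison, and 8 of 15 carried a symbol. Their summed signal was 2.36 to 48.8 times the 75th percentile in the resistant biopsies and 204 to 1300 times it in skin. Of the 8, 5 were called lower, beside 0.434% of all targets called in either direction. Among those 5, KRT1 and DSG1 were not above background in any resistant biopsy and entered the test only through skin. The part of keratinocyte genes in the member values was not tested. In the sensitive biopsy 0 of 7 members were called by limma, with 1 at an unadjusted p under 0.05, and 5 of 7 differences were above 0, beside 55% of all targets, with a median of 0.88 beside 0.08. In the relapse aspirates 2 of 7 rose, beside 17.4% of all targets. MMP12 was called lower, as 16.3% of all targets were, and is not read against that share because it entered only through the earlier aspirates. Of the 7 differences 4 were above 0, beside 45%, with a median of 0.05 beside −0.08. After death 0 of 7 were called by limma, with 1 at an unadjusted p under 0.05, and 4 of 7 differences were above 0, beside 54.5%, with a median of 0.10 beside 0.06. Of 11 fibroblast and matrix genes 6 carried a symbol, and their summed signal was 65.3 times the 75th percentile after death and 5.84 to 9.08 times it in the relapse aspirates. Their part in the post-mortem values was not tested. The comparisons share samples, the first pair through the resistant biopsies and the last pair through the relapse aspirates.

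Of the other monocyte and macrophage genes 6 were tested in the relapse aspirates, with 3 differences above 0 and 3 below. By limma 0 were called higher and 1 lower, a gene not reported here. CD163, the haemoglobin scavenger receptor of macrophages, differed by 1.53 (SE 0.47) in the relapse aspirates, at a limma adjusted p of 0.0506. In the other 3 comparisons none of these genes passed by limma, with 5 or 6 tested in each. Of 25 dendritic cell genes looked for, 9 carried a symbol and were tested. In the relapse aspirates 3 rose and 2 fell. Those that rose were CD40 and CD274, given above, and TCF4. TCF4, a transcription factor of plasmacytoid dendritic cells but not private to them, rose by 2.34 (SE 0.26, limma adjusted p = 0.00171). Those that fell were CD80, given above, and FLT3, the growth factor receptor of dendritic cell precursors, by 1.39 (SE 0.20, limma adjusted p = 0.00397).

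Metformin was followed in 1 pair of arrays for each of 2 dogs, which allows no test. In MalcolmX, whose arrays lay on 1 slide, 4 of the 6 genes measured on both arrays differed by more than 2-fold, beside 9.07% of all targets measured on both, and MMP12 did so by its bound. CD86 read 0.28 in the aspirate after metformin and 2.32 in the biopsy, a difference of −2.04. FCER1G differed by −1.39 and FCGR1A by −1.01, and CD36 by 1.38. MMP12 was not above background after metformin, which puts it at least 5.85-fold lower than in the biopsy. CYBB and TLR1 differed by −0.75 and −0.12. The later sample is an aspirate and the earlier a biopsy, so the way of sampling and metformin cannot be told apart.

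In Rosco, both samples were aspirates, on different slides, and the same 2 arrays are the earlier group of the relapse comparison. The remission aspirate after metformin and the failed-chemotherapy aspirate differed by more than 2-fold for 2 of 7 genes, beside 4.52% of all targets. FCGR1A read −0.09 in remission and −2.71 before, a difference of 2.62, or 6.16-fold. CD36 read −4.90 in remission and −2.29 before, a difference of −2.61, or 6.10-fold lower. The other 5 genes differed by −0.49 (CD86) to 0.23 (MMP12), and CYBB and TLR1 by −0.12 and −0.09.

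**Figure D4:**
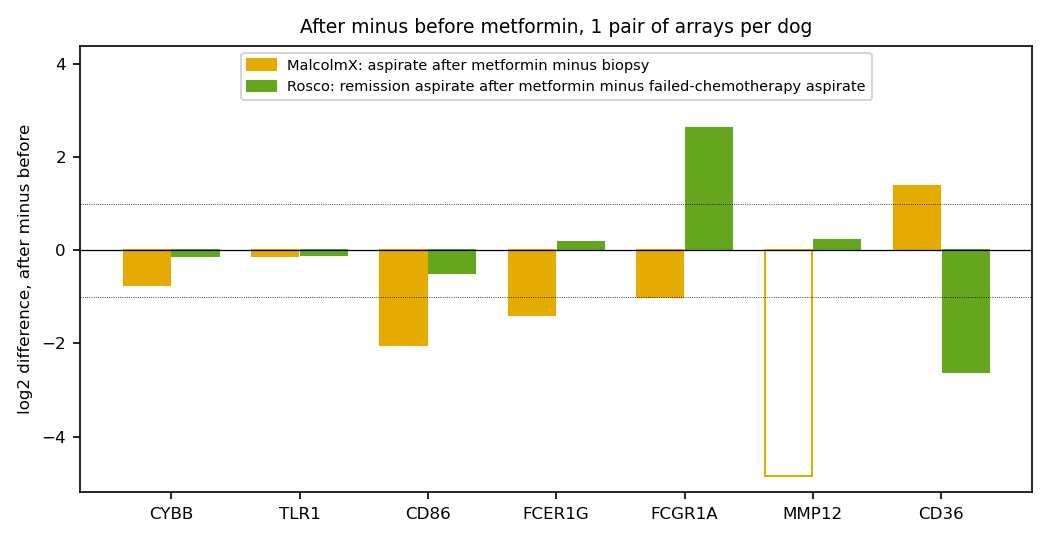
Difference in log2 relative signal after minus before metformin (vertical axis) for the 7 genes, with 1 bar for MalcolmX and 1 for Rosco, each from 1 pair of arrays. The dotted lines mark a 2-fold difference and the open bar rests on an array where MMP12 was not above background. FCGR1A and CD36 lie past 2-fold in opposite directions in the 2 dogs.

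The second resistant aspirate and the first biopsy of Rosco were close for all 7 genes, although they were read on different scan days. The differences ran from −0.73 for MMP12 to 0.06 for CYBB, and 0 of 7 passed 2-fold, beside 8.45% of all targets. There is no replicate of either sample, so this has no test.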

How the data were processed

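RNA of 15 samples was labelled with Cy3 and hybridised to canine Agilent arrays, 1 per sample, from RNA that had passed an integrity minimum, per the labels' protocols. Per the file headers, the authors read spot intensity with Agilent Feature Extraction 11.0.1.1, whose processed signal has the local background subtracted and is not normalized between arrays. The deposited series table holds median minus background intensity, and 678300 of 678300 cells matched the scanner values within 0.01. Flag columns in the deposited files mark spots above background, saturated or outlying with a score of 0 or 1.

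The log2 of the processed intensity minus the array's 75th percentile was used, after control and outlying spots were left out. No spot was saturated. Symbols came from RefSeq identifiers, for 2186 of 43603 probes. A target took its probe with the highest mean, and entered a test if every array of 1 or both groups had it above background. Differences were tested with limma 3.58.1 in R 4.3.3 (lmFit and eBayes, two-sided). P-values were adjusted by Benjamini-Hochberg across the targets of a comparison, with a threshold of 0.05. A group of 1 array borrows the spread of the other group. Precision is limited by the number of arrays. The script was tested on simulated data.

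The 7 genes, the gene lists and the comparisons were chosen with earlier results of these data known. Named are all 7 members, list genes past the threshold, otherwise at most 3 of a list with the largest difference, and for each member the 3 genes with the highest r. A few genes that this rule names are not reported here. From lists of other cell types the 2 brightest genes and those past the threshold were taken. Where a pair was 1 array against 1, no test was made. Alternatives changed the scaling, background correction, filter, probe, variance model, blocks and samples.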

Additional observations from a re-analysis of the deposited data

Results flagged for a closer look

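TLR1 in the Rosco biopsy, at −1.68, stood apart from the other 3 resistant biopsies, which lay between 2.08 and 2.81. The gap to the nearest was 0.837 of the whole range of the group, past Dixon's critical value for 4 samples. Chance puts about 1 in 20 groups past that value, and 7 genes were looked at in this group. MS4A1 was not above background in the same sample.

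For 4 genes the difference after minus before metformin had opposite signs in the 2 dogs with such a pair, and whether the dogs differ was not tested, since each gave 1 pair. FCGR1A differed by −1.01 in MalcolmX and by 2.62 in Rosco. CD36 differed by 1.38 in MalcolmX and by −2.61 in Rosco. FCER1G differed by −1.39 in MalcolmX and by 0.17 in Rosco, and MMP12 by −4.84, on an array where it was not above background, and by 0.23.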

How the results depend on the processing

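In the relapse comparison CYBB and TLR1 passed the threshold in 16 of 17 alternatives each, with differences of 1.88 to 2.34 and 2.22 to 3.12. MMP12 differed by −4.36 to −1.60, values that rest on signals below background in 2 of 3 relapse aspirates. Within slide 4 there was no test, and MMP12 was not tested where every array had to be above background. Relapse targets called numbered 8554, against 2677 with the second resistant aspirate added, 2498 within slide 3, and 3772 (without the remission aspirate) to 9760 with 1 array left out. It was 5641 without relapse aspirate 1 and 5533 without the failed-chemotherapy aspirate, and 3 members were called each time. Scaling on the array median put the median of all targets at 0.51, 0.13, 0.11 and −0.18 in the skin, sensitive, relapse and post-mortem comparisons, in place of 0.25, 0.08, −0.08 and 0.06. It split the relapse calls into 5572 higher and 3342 lower, in place of 4409 and 4145.

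Between resistant biopsies and skin 104 targets were called. The count was 8 with normexp, 55 with the series table, 66 without a filter, 6 with every array above background, 32 with slide as a block and 40 within slide 1. With the dog as a replicate block in MalcolmX and Rosco it was 0 by limma (2160 at an unadjusted p under 0.05), and 152 with the dog as a random block. With 1 array left out it ran from 5 (without Jake) to 3124, or 12.8% of those tested, without the Rosco biopsy. Called members ran from 0 to 3, and the 3 were called only without the Rosco biopsy. Called targets numbered 11 and 21 without the MalcolmX and Dog Y biopsies, and 327 and 321 without the MalcolmX and Rosco skins. In the sensitive comparison 1 fit over all groups called 11 targets. After death 390 were called with normexp, 14 with the mean of probes, and 0 to 431 with 1 array left out (107 without relapse aspirate 1, 431 without aspirate 3). Against the Rosco biopsy, the second resistant aspirate had 1 gene past 2-fold in place of 0 with quantile scaling (FCER1G, −1.02) and 1 with median scaling (MMP12, −1.08). In the MalcolmX pair FCGR1A was at −0.97, inside 2-fold, under both.

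Some small differences changed sign, and the cause was not tested. In relapse FCER1G was −0.16 with normexp, −0.25 within slide 3 and −0.01 with its other probe, a choice made after seeing the data. In relapse CD36 was 0.23 with quantile scaling, 0.16 with median scaling, 0.27 with slide as a block and 0.85 within slide 3. After death CYBB was 0.12 with quantile scaling and 0.03 with slide as a block. FCGR1A was then −0.12 with quantile scaling, −0.15 with median scaling and −0.08 with the block, MMP12 0.18 with normexp and CD36 −0.37 with the block. That block was added after seeing the data. With 1 array left out, FCGR1A against skin ran from −0.61 to 0.68. In the sensitive biopsy FCGR1A ran from −0.98 to 0.09, CD36 from −3.00 to 0.38 and TLR1 from −0.18 to 1.32. In relapse CD86 ran from −0.09 to 0.41, FCER1G from −0.16 to 0.40, FCGR1A from −2.37 to 0.25 and CD36 from −1.34 to 1.27. After death CYBB ran from −0.14 to 0.06, FCGR1A from −0.36 to 0.47 and CD36 from −0.22 to 0.88.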
